A study of Mus musculus with 6 samples.

Results

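Cytosolic ribosomal proteins were followed in 3 whole pancreas samples from mice without Rkip-1 (KO) and 3 from wild-type mice (WT), all from 1 colony on a C57BL/6 background and 8 weeks old, with 1 array per sample. A probe set, the group of probes on the array that reports 1 transcript, was a member when the platform annotation gave it exactly 1 gene and the symbol of that gene named a protein of the large subunit (Rpl, Rplp) or of the small subunit (Rps, Rpsa). This chose 100 of the 45037 tested probe sets and 46 of the 18193 genes with a single-gene probe set. The large subunit had 24 genes and 44 probe sets, and the small subunit 22 genes and 56 probe sets. Rkip-1 is the product of Pebp1 and restrains signalling from Raf to MEK and ERK. The labels describe neither the null allele nor the sex of the mice. Xist, the transcript of the inactive X chromosome in females, measured 9.11 and 9.79 in KO replicates 2 and 3 and 9.09 in WT replicate 3, and at most 4.43 in the other arrays, so that 2 KO arrays and 1 WT array were high. They name biological replicates but not how many animals each one holds, so p-values measure the spread between these samples. RNA came from the whole organ, in which fewer cells of a type and less RNA per cell cannot be told apart.

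The cytosolic ribosome joins a small subunit, which reads the messenger RNA, and a large subunit, which forms the peptide bond. Each holds ribosomal RNA and many small basic proteins that are made in matched amounts, and pancreatic acinar cells carry very many ribosomes on the endoplasmic reticulum to make digestive enzymes. Their messenger RNAs are abundant, short and start with a run of pyrimidines (the terminal oligopyrimidine, or TOP, motif), through which mTOR and the RNA-binding protein Larp1 control their translation. That control acts on translation more than on the messenger level, and the arrays measured the messenger level only. Ribosomal protein genes also have many processed pseudogenes, so a probe set can bind a copy as well as the named gene.

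The pyrimidine run was looked for in the RefSeq start windows of the members (mouse assembly GRCm38.p6), since it is a feature that the choice by symbol did not use. Windows reached from 15 bases before the listed start to 15 bases from the start base on, and a run was at least 6 consecutive bases that are each C or T. A run was counted anywhere in the window, so the shares below are not shares of starts with a TOP motif. Many of the runs did not cover the start base. Those at Rpl4, Rpl6, Rpl10a, Rpl19, Rpl37, Rpl39l, Rps25 and Rps27l ended before it. Those at Rpl12, Rpl13a, Rpl39, Rps2, Rps19 and Rps26 began after it. Of the 46 genes, 40 had at least 1 listed start, 48 starts in all, and 26 of these starts (54.2%) held such a run on the strand of the gene, against 28.8% of 21262 starts of protein-coding genes. On the opposite strand the order was turned, with 2 of the 48 starts (4.17%) against 31.7%. The windows below are shown because they hold the longest runs (Rpl7a, Rpl27a and Rpl35), or belong to members that the results turn on (Rpl27a, Rps10 and Rps6). Rps28 stands for starts without a run. Capitals mark the run, and the start base is the 16th letter.
Rpl7a: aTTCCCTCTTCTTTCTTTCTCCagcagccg
Rpl27a: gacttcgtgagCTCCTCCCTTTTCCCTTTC
Rpl35: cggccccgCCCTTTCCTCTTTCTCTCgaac
Rps10: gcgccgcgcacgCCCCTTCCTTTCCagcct
Rps6: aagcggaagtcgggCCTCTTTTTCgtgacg
Rps28: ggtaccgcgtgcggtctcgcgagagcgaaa
They lie at chr2:26910792-26910821 (Rpl7a), chr7:109519180-109519209 (Rpl27a), chr2:39005117-39005146 (Rpl35, minus strand), chr17:27635230-27635259 (Rps10, minus strand), chr4:86857353-86857382 (Rps6, minus strand) and chr17:33824548-33824577 (Rps28, minus strand), with the others on the plus strand. Over the whole 300-base promoter windows and both strands, CCGGAA, the core bound by ETS factors, stood at 26 of the 48 ribosomal starts (54.2%), against 18.7% of the starts of protein-coding genes. TATAAA stood at 10.4% against 12.6%, AAGATGG at 7 of the 48 against 6.24%, and GGGCGG at 24 of the 48 against 46.2%. These shares describe letters in a window and not binding, and the listed starts may be a few bases off.

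Most ribosomal probe sets were among the brightest on the arrays. Values are RMA summaries on the log2 scale, on which the arrays had medians of 2.97 to 3.02 and a highest value of 14.57. The top 1% of the tested probe sets by their mean over the 6 arrays began at 10.14 and held 451 probe sets. Of these, 64 were ribosomal members (14.2%), from 34 of the 46 genes. A further 79 of the 451 listed a ribosomal gene together with other genes, and are not members. The subunits had like shares of their probe sets there, 28 of 44 (63.6%) for the large and 36 of 56 (64.3%) for the small subunit.

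**Figure D1:**
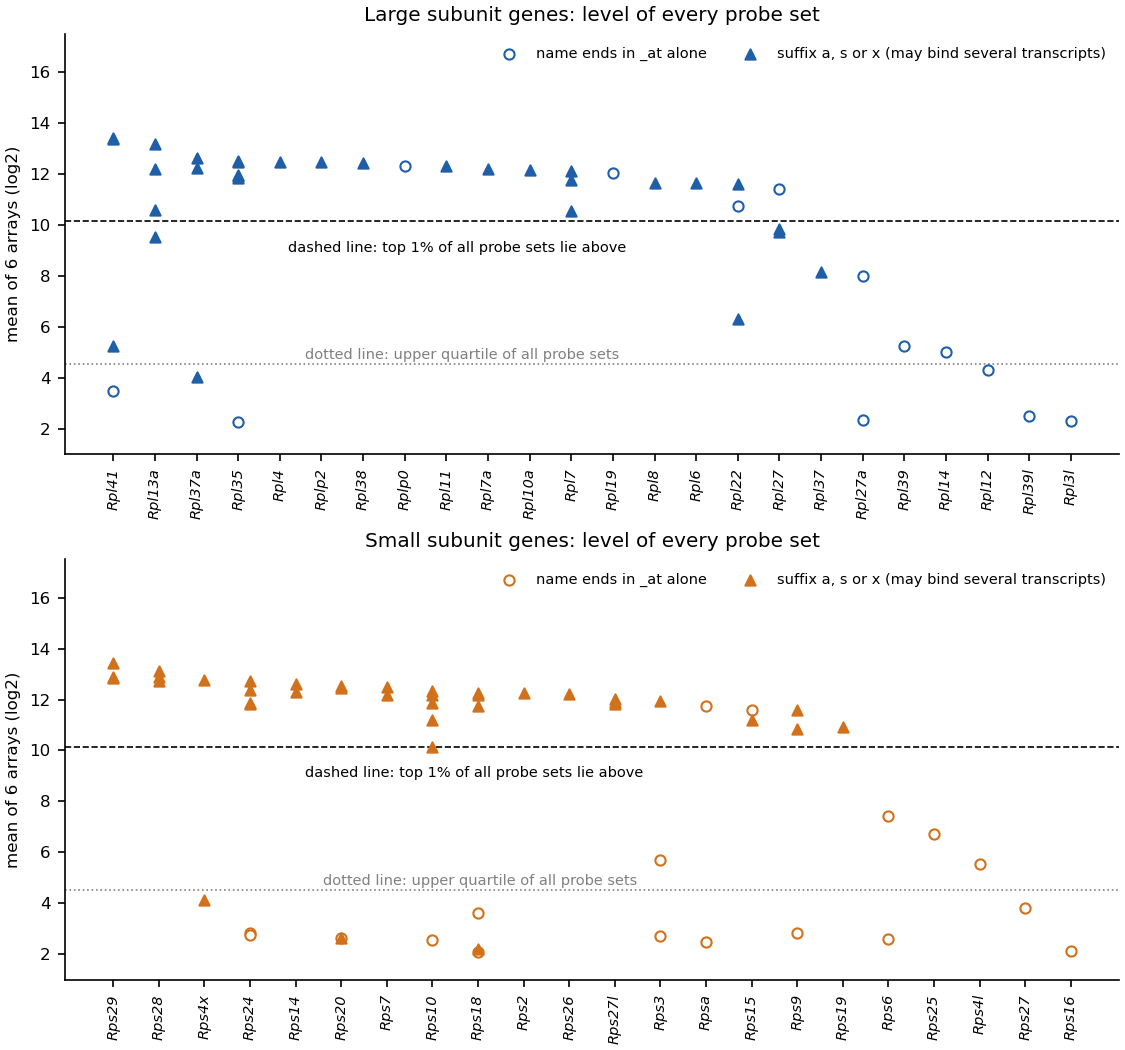
Mean of the 6 arrays (log2) of every ribosomal probe set, by gene, for the large subunit (top, blue) and the small subunit (bottom, orange); open circles have a name ending in _at alone and triangles carry a suffix for sets that may bind several transcripts. The dashed line at 10.14 marks the top 1% of all tested probe sets, above which 64 of the 100 members lie, and 22 lie below the dotted line at 4.53, the upper quartile.

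The brightest member was a probe set of Rps29, a small zinc-binding protein of the small subunit, with a mean of 13.44 and rank 43 among all tested probe sets. Rpl41, a very short peptide at the interface of the subunits, followed at 13.39 and rank 45, then Rpl13a at 13.19 and Rps28 at 13.10. In all, 16 members were among the 100 brightest probe sets. Ranks order probe sets and not transcripts, because the signal of a probe set also depends on its probes.

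Probe sets of 1 gene could lie far apart in level. Of the 46 genes, 23 had more than 1 probe set, and in 11 of these a probe set in the top 1% stood beside another below the upper quartile of 4.53. Rps18, near the head of the small subunit, had 6 probe sets with means from 2.10 to 12.27. Rps24 had 6 from 2.75 to 12.72, Rpl35, at the exit of the peptide tunnel, 6 from 2.24 to 12.49, and Rps20 4 from 2.63 to 12.52. Name suffixes split in the same way. Of the 64 members in the top 1%, 58 (90.6%) carried a suffix for sets that may bind several transcripts, against 4 of the 22 dim ones (18.2%) and 19.9% of all tested probe sets. Bright probe sets carried such suffixes often in general. The share was 73.6% in the whole top 1% and 65.6% in its 308 probe sets that list no ribosomal gene. Just inside the top 1% lay Rpl7 at 10.55 and Rpl13a at 10.57, and just outside it Rps10 at 10.12 and Rpl27 at 9.84.

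In 5 genes the brightest single-gene probe set was itself dim, namely Rpl12 (4.28), Rps27 (3.82), Rpl39l (2.50), Rpl3l (2.31) and Rps16 (2.13). Rpl3l, the paralog of Rpl3 found in heart and skeletal muscle, measured 2.26 to 2.38 in all 6 arrays, and Rpl39l, the testis paralog of Rpl39, measured 2.37 to 2.63. Both lie below the array medians. Rps4l, a paralog of Rps4x, measured 5.29 to 5.92. Rps27l, a paralog of Rps27 known as a p53 target, read 11.87 to 12.08 at its brightest probe set, whose suffix marks probes that may bind further transcripts, while the single-gene probe set of Rps27 read 3.72 to 3.95. Rplp1 and Rpl10l had no single-gene probe set and are not analysed here. In all, 28 ribosomal genes were listed only in probe sets shared with other genes.

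No ribosomal probe set passed the test between genotypes. With limma and Benjamini-Hochberg adjustment over all tested probe sets, 0 of the 100 had an adjusted p under 0.05, against 0.0977% of all probe sets. Members higher in KO numbered 0, against 33 of all probe sets (0.0733%), and members lower in KO numbered 0, against 11 (0.0244%). The lowest adjusted p of a member was 0.209. At an unadjusted p under 0.05 there were 3 of 100 (3.00%), against 8.68% of all probe sets. The median difference, KO minus WT, was -0.02 on the log2 scale over the 100 probe sets, -0.02 for each subunit, and 0.01 over all tested probe sets. The median size of a difference, without its sign, was 0.05 for the members and 0.09 for all. At like brightness the gap was smaller. Within the top 1% the size was 0.05 for the 64 members and 0.06 for the 308 probe sets that list no ribosomal gene.

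**Figure D2:**
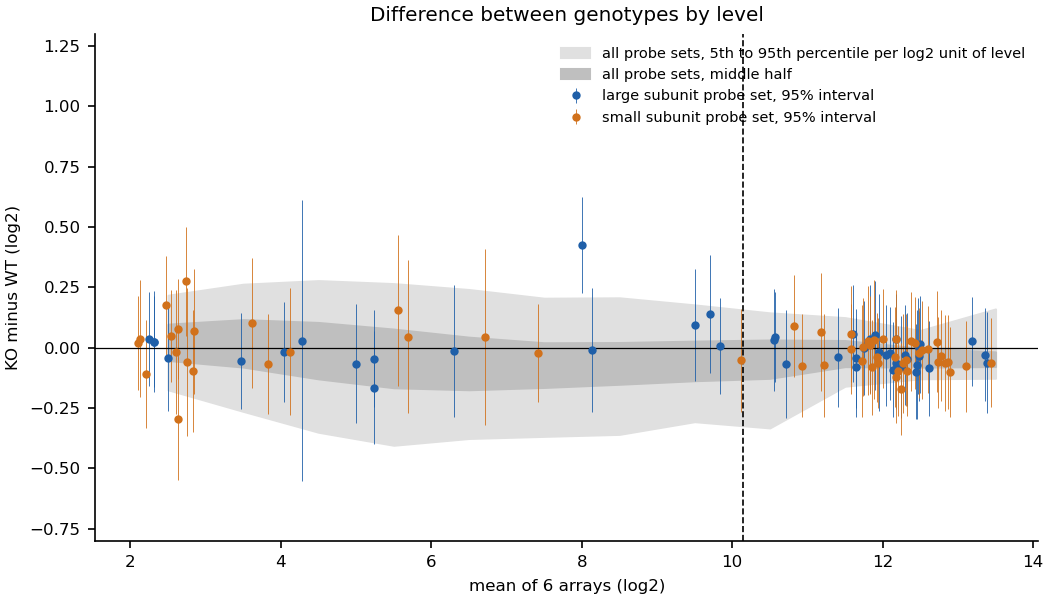
Difference KO minus WT (log2) of each ribosomal probe set with its 95% interval against its mean over the 6 arrays (log2); blue, large subunit, orange, small subunit, grey bands, the 25th to 75th and the 5th to 95th percentile of all tested probe sets in steps of 1 log2 unit of level. At the right of the dashed line at 10.14 all 64 members lie between -0.17 and 0.09.

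The arrays were tight enough to bound these differences in array signal. Among the 64 members of the top 1%, estimates ran from -0.17 to 0.09, and the 95% intervals reached -0.36 and 0.31 at most, that is 1.29-fold lower and 1.24-fold higher. None of the 64 had an unadjusted p under 0.05, against 6.21% of the top 1%. The within-group SD of these members had a median of 0.07, against 0.08 for the 308 probe sets of the top 1% that list no ribosomal gene, and below the 0.13 of all tested probe sets. For the dim members below the upper quartile, intervals reached -0.55 and 0.61. An interval that includes 0 does not show that the genotypes have the same level. Saturation at the top of the scale could not be checked, so the intervals bound the signal and not the messenger level. The 11 measured acinar markers, at a median level of 14.37, had a median within-group SD of 0.02.

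In the large subunit, the proteins of the stalk that recruits elongation factors were close between genotypes. Rplp0 measured 12.38, 12.24 and 12.26 in KO replicates 1 to 3 and 12.32, 12.35 and 12.35 in WT replicates 1 to 3. The values of the groups overlap, and the difference of -0.05 had a 95% interval of -0.24 to 0.15 (limma adjusted p 0.917). Rplp2 gave 12.43, 12.31 and 12.51 in KO and 12.37, 12.61 and 12.48 in WT, a difference of -0.07 (-0.29 to 0.15). Here too the groups overlap, with KO replicate 2 lowest and WT replicate 2 highest.

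Among core proteins of the large subunit, the differences furthest below 0 were those of Rpl38 at -0.10, Rpl10a at -0.09, Rpl37a and Rpl8 at -0.08 each, and Rplp2. Rpl38, known for its part in translating homeobox messages, read 12.39, 12.32 and 12.45 in KO and 12.47, 12.56 and 12.43 in WT. Rpl8 lies close to the catalytic centre, and Rpl37a is a zinc-binding protein. Of the brightest, Rpl41 differed by -0.06, Rpl13a by 0.03, Rpl4 by -0.04 and Rpl35 by 0.01, with adjusted p of 0.899 to 0.982 by limma. The differences furthest above 0, after that of Rpl27a, were those of Rpl22 at 0.06, Rpl12 and Rpl13a at 0.03 each, and Rpl3l at 0.02.

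Rpl27a, a core protein of the large subunit, had the largest difference of all members. Its probe set of intermediate brightness measured 8.17, 8.17 and 8.32 in KO (8.22 ± 0.08, SD, n = 3) and 7.76, 7.85 and 7.77 in WT (7.79 ± 0.05, n = 3). All 3 KO values lay above all 3 WT values, and the difference of 0.42, a 1.34-fold higher KO level, had a 95% interval of 0.23 to 0.62. It did not pass after adjustment (limma adjusted p 0.209, unadjusted 0.000822), and over all settings tried its adjusted p ran from 0.114 to 0.51. The other single-gene probe set of Rpl27a lay at 2.32 over the 6 arrays, below the array medians, and differed by 0.02.

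**Figure D3:**
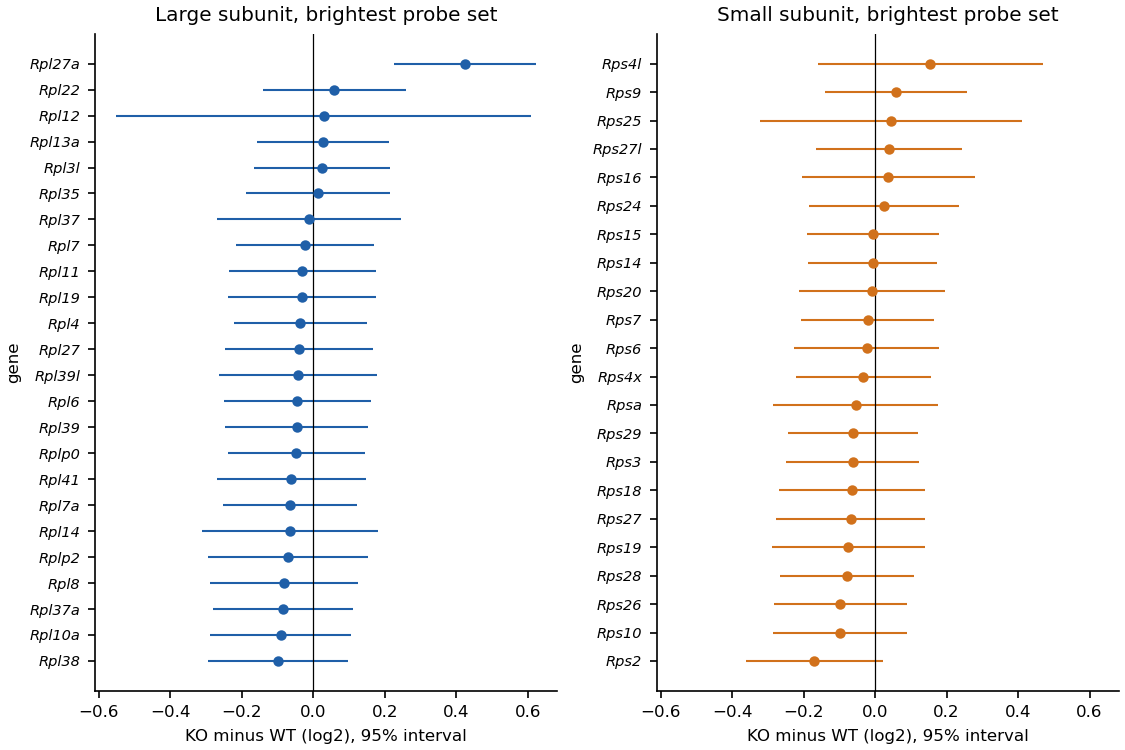
Difference KO minus WT (log2, point) with its 95% interval (line) at the brightest probe set of each of the 24 large subunit genes (left) and 22 small subunit genes (right), sorted by difference. Rpl27a at 0.42 has the only interval that leaves out 0, and Rps2 at -0.17 is the furthest below 0.

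In the small subunit, Rps2 was furthest below 0 among the brightest probe sets. Rps2, which lines the channel where messenger RNA enters, measured 12.22, 12.10 and 12.16 in KO (12.16 ± 0.06, SD, n = 3) and 12.37, 12.34 and 12.28 in WT (12.33 ± 0.05, n = 3). The groups did not overlap, with KO the lower, and the difference of -0.17 had an interval of -0.36 to 0.02 and a limma adjusted p of 0.623. Rps10, also near the entry, differed by -0.10, Rps26, at the exit side of the messenger channel, by -0.10, Rps28, its neighbour there, by -0.08, and Rps19, a gene mutated in Diamond-Blackfan anaemia, by -0.07.

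Rps6, the protein that S6 kinases and the ERK-activated RSK kinases phosphorylate, measured 7.46, 7.35 and 7.41 in KO and 7.38, 7.54 and 7.37 in WT. Its groups overlap, and the difference was -0.02 (95% interval -0.23 to 0.18). This concerns the messenger RNA and not the phosphorylation. Rpsa, a small subunit protein also known as a laminin receptor, differed by -0.05 at 11.73, and its second probe set at 2.47, below the array medians, by 0.17. Of the brightest, Rps29 differed by -0.06, Rps4x by -0.03, Rps24 by 0.03 and Rps14 by -0.01, and Rps14 had values of 12.59 to 12.61 in all 6 arrays. Differences above 0 were those of Rps4l at 0.15, Rps9 at 0.06, and Rps25, Rps27l and Rps16 at 0.04 each.

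The 3 KO values lay wholly below or above the 3 WT values in 11 of the 100 members (11.0%), against 13.5% of all tested probe sets. KO was below WT in 8 of them, against 6.51% of all probe sets and 14.9% of the top 1%, and above WT in 3, against 6.97% of all. In the top 1%, 0 of the 64 had KO above WT, against 4.66%. The 8 were all bright small subunit sets, 2 of Rps10, 2 of Rps28 and 1 each of Rps2, Rps26, Rps29 and Rps3, with differences from -0.17 to -0.06 and adjusted p of 0.623 to 0.883 by limma. Against the 14.9% of the top 1%, 8 of its 64 ribosomal members (12.5%) is no higher share. Within the top 1% it was 8 of 36 for the small subunit (22.2%) and 0 of 28 for the large, a contrast that was not tested. The 3 above WT were those of Rpl27a and dim sets of Rps3 (0.27, adjusted p 0.48) and Rpsa. These 11 were named after their values were seen.

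Probe sets of 1 gene did not always lie on the same side. In 14 of the 23 genes with more than 1 probe set, some were above 0 and others below. The widest gaps were those of Rpl27a, of Rps20 (-0.29 to 0.08), Rps3 (-0.06 to 0.27), Rpsa and Rps18 (-0.11 to 0.10). In Rps20, Rps3 and Rpsa, the value furthest from 0 came from a probe set with a mean of 2.47 to 2.73, below the array medians, and the brightest probe set differed by -0.06 to -0.01.

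The bright ribosomal probe sets shifted together from array to array by more than they differed between genotypes. For each of the 64 sets, the value of an array was taken relative to the mean of that set over the 6 arrays. The median of these was 0.01, -0.06 and -0.00 in KO replicates 1 to 3 and -0.04, 0.08 and 0.03 in WT replicates 1 to 3. WT replicate 2 was the highest array for 39 of the 64 and KO replicate 2 the lowest for 32, followed by WT replicate 1 for 19. The spread among WT arrays was thus 0.12, against a difference between the group means of -0.04, and the groups overlap. Large and small subunits kept the same order at the extremes, with -0.05 and -0.06 in KO replicate 2 and 0.07 and 0.08 in WT replicate 2. Among the 308 without a ribosomal gene, WT replicate 2 was also highest in median, at 0.04, and KO replicate 1 lowest, at -0.03. Whether array handling or the mice set this order was not tested.

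**Figure D4:**
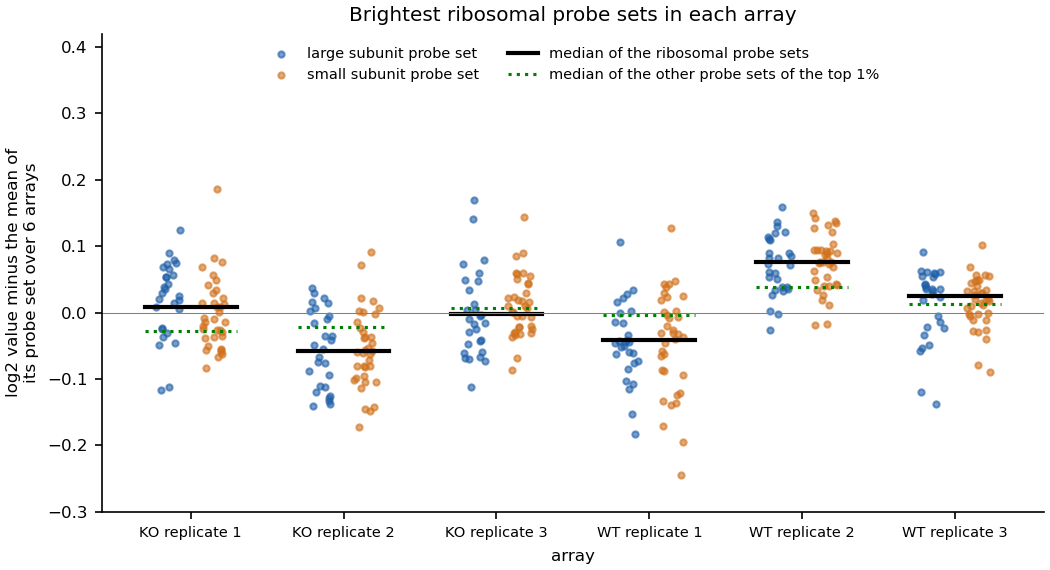
Log2 value of each of the 64 ribosomal probe sets of the top 1% minus its own mean over the 6 arrays, by array (blue, large subunit; orange, small subunit); black bars are the medians of these and green dotted bars the medians of the 308 other probe sets of the top 1%. WT replicate 2 is highest at 0.08 and KO replicate 2 lowest at -0.06, and WT replicate 1 at -0.04 lies below KO replicates 1 and 3.

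By the brightest probe set, 34 of the 46 genes were below 0, with a median of -0.04, against 50.2% of all genes below 0 with a median of -0.00. The count was 32 after a second quantile normalization and 35 with equal array medians. Single arrays moved it both ways. It was 25, with a median of -0.01, without KO replicate 2, and 30, with a median of -0.01, without WT replicate 2. It was 38, with a median of -0.07, without KO replicate 1, and 37, with a median of -0.06, without WT replicate 1. With equal array medians the median was -0.06. The 64 members of the top 1% had 43 below 0 (67.2%), and the 308 without a ribosomal gene had 64.6%. Leaving out KO replicate 2 gave 37, leaving out WT replicate 2 gave 39, and leaving out WT replicate 1 gave 56. The median of -0.03 ran from -0.06 without WT replicate 1 to -0.01 without WT replicate 2.

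Other genes that build or serve ribosomes did not pass either, by their brightest probe sets and the same limma test. By that measure 0.132% of all genes passed, 10.1% were under 0.05 before adjustment, and 50.2% were below 0. None of the 29 measured initiation factors reached even an unadjusted p under 0.05. Their median was -0.06, with 21 below 0. At their median level of 8.69 all probe sets lay mostly below 0 too, with a 25th to 75th percentile of -0.15 to 0.02 at levels of 8 to 9. After a second quantile normalization the median was -0.02, with 16 below 0, while leaving out KO replicate 1 gave -0.03, KO replicate 2 -0.04, and WT replicate 2 -0.03. Without KO replicate 3 or WT replicate 3 it was -0.10. The lowest p were those of Eif4h at -0.20 and Eif4a2 at -0.21, which both serve the helicase step of scanning. The same held for 13 elongation and release factors, whose median of -0.02 ran from -0.05 without WT replicate 3 to 0.00 after a second quantile normalization, and Eif5a2 and Eef2k measured -0.20 and -0.21. Of 12 nascent chain and ribosome-associated factors 0 passed and 1 had an unadjusted p under 0.05, Ltn1, a ligase of ribosome quality control, at -0.29, and Nemf, its partner, measured -0.29. Their median of -0.07 was -0.03 after a second quantile normalization or when WT replicate 2 was left out.

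For ribosome biogenesis, 0 of 52 passed, and 5 had an unadjusted p under 0.05 (9.62%, near the 10.1% of all genes). Below 0 were 35 (67.3%, against 50.2% of all genes), and the median was -0.07. The median level of the list was 5.83, and all probe sets at levels of 5 to 6 had a 25th to 75th percentile of -0.17 to 0.08. That median was -0.04 after a second quantile normalization and without WT replicate 1 or WT replicate 2, and -0.14, with 41 below 0, without WT replicate 3. Nop56, a core protein of the snoRNA particles that methylate ribosomal RNA, measured 5.83 ± 0.13 in KO and 6.22 ± 0.23 in WT (SD, n = 3 each), and Rrp12 differed by -0.68. In the list of mTOR, S6 kinase and ERK inputs, 0 of 21 passed, and 4 were under 0.05 before adjustment (19.0%, against 10.1% of all genes, a contrast that was not tested). The median was 0.03, but -0.05 without KO replicate 1 and -0.02 without WT replicate 1. It was 0.01 with equal array medians or when KO replicate 2 was left out. Its lowest p were those of Myc, which drives ribosome biogenesis, at -0.50 (95% interval -0.74 to -0.25, adjusted p 0.227), and of the kinase gene Rps6ka6 at -0.35.

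Proteins of the mitochondrial ribosome, which are encoded in the nucleus but serve a separate ribosome, had 64 of 76 members below 0 and a median of -0.08. Of all genes 50.2% were below 0. The median level of the list was 6.75, and all probe sets at levels of 6 to 7 had a 25th to 75th percentile of -0.17 to 0.04. By limma 0 passed and 13 had an unadjusted p under 0.05 (17.1%, against 10.1% of all genes, also not tested). Mrps22 read 4.72, 4.80 and 4.88 in KO and 5.71, 5.34 and 5.25 in WT, a difference of -0.63 (-0.91 to -0.35, adjusted p 0.18), and the groups do not overlap. Mrpl18 differed by -0.37 (adjusted p 0.276). After a second quantile normalization 42 of the 76 were below 0, with a median of -0.02, and with equal array medians 68 were, with a median of -0.10.

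**Figure D5:**
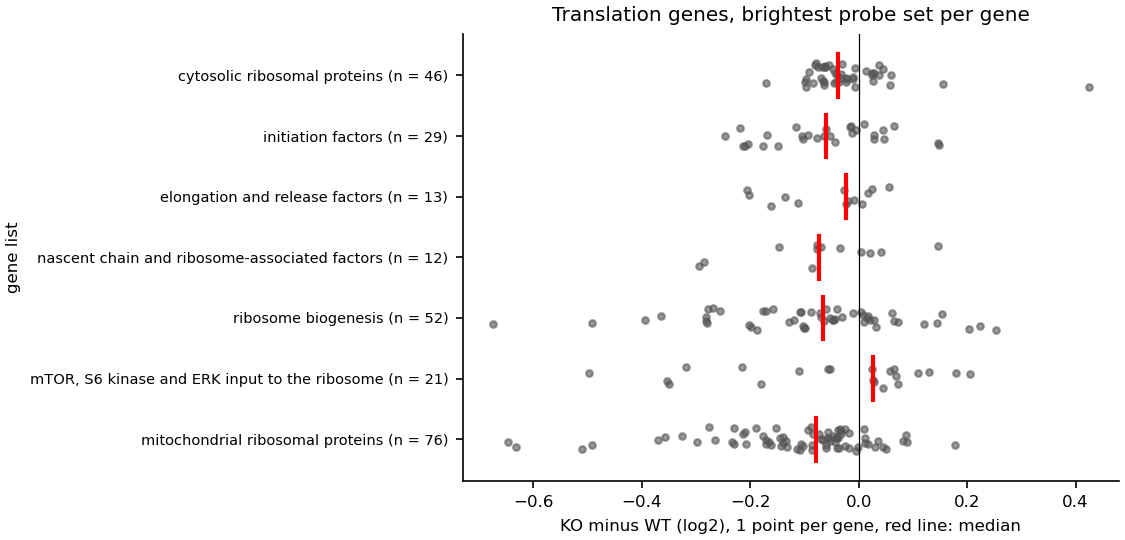
Difference KO minus WT (log2) of each gene at its brightest probe set, 1 point per gene, for the 46 cytosolic ribosomal genes and 6 other lists of translation genes, with the median of each list as a red line. The cytosolic ribosomal genes lie between -0.17 and 0.42 with a median of -0.04, and list medians run from -0.08 for the mitochondrial ribosomal proteins to 0.03 for the mTOR, S6 kinase and ERK inputs.

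As a check of the labels, Pebp1 measured 5.71 to 6.50 in the KO arrays and 9.81 to 10.01 in the WT arrays. The tissue label matched its markers, with 11 of 11 measured acinar markers in the top 1% and 6 measured islet markers present at a mean level of 8.94 to 9.26 per array. Summed over 8 fibroblast markers, log2 values were 56.7 to 59.7 in KO and 60.2 to 62.7 in WT so that the groups do not overlap. The acinar sums did not overlap either, at 157.08 to 157.23 in KO and 157.25 to 157.37 in WT. Nor did those of the mitochondrial ribosomal proteins, the mTOR, S6 kinase and ERK inputs, and the nascent chain factors, all lower in KO. For the mTOR, S6 kinase and ERK inputs 12 of 21 genes were nevertheless above 0, so that sum does not describe most of its genes. Among single probe sets, 13.5% of all tested had groups that do not overlap. The separation of the sums was not tested. Sums of the islet, duct, lymphocyte, macrophage, adipocyte and endothelial markers overlapped, as did those of initiation factors, elongation and release factors, and ribosome biogenesis. The mean level of 16 lymphocyte markers ran from 2.94 to 3.77 over the 6 arrays, and that of 6 adipocyte markers from 4.92 to 6.43. By limma 0 markers of any cell type list passed. An unadjusted p under 0.05 was found for 4 of 8 fibroblast, 2 of 16 lymphocyte (12.5%) and 0 of 6 adipocyte markers, against 10.1% of all genes. It was found for 1 of 6 islet, 1 of 6 duct, 1 of 9 macrophage, 1 of 6 endothelial and 0 of 11 acinar markers. All 8 fibroblast and all 6 islet markers were below 0, with medians of -0.38 and -0.13. Of the 6 adipocyte markers 5 were below 0. Their median of -0.33 ran from -0.62 to -0.12 over other scalings and arrays left out. The islet median ran from -0.17 to -0.05 over other scalings and arrays left out. Acinar, duct, lymphocyte, macrophage and endothelial markers lay on both sides of 0. The part of these cell types in the ribosomal values was not tested.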

How the data were processed

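RNA of 6 whole pancreas samples was measured on 1 Affymetrix array each. The deposited values are log2 expression per probe set, for which the submitters' processing notes name RMA and affy; their versions and settings are not stated. Quantile normalization within RMA gives the arrays like distributions, which removes any shift common to the bulk of genes. After removal of 64 control probe sets, 45037 of 45101 were fitted in R 4.3.3 by limma 3.58.1 (lmFit, then eBayes, KO minus WT, two-sided, no covariate, 9.53 degrees of freedom), with Benjamini-Hochberg adjustment over all of them. A gene is represented by its brightest single-gene probe set over the 6 arrays. For the other lists, old symbols were replaced using Entrez IDs and RefSeq's gene table. Members and lists were chosen with earlier results of these data known. Named genes are those past the threshold, the 5 most above and 5 most below 0 and the 5 brightest of each subunit, Rplp0, Rplp2, Rpsa, Rps6, the paralogs with their counterparts, the 5 with the most divergent probe sets, and the 2 of smallest p of each other translation list. Alternatives were other scalings, a filter on dim probe sets, other variance models, weighted arrays, a block for the replicate number, arrays left out, other choices of probe sets and the Xist level as a covariate. The fit was tested on simulated data. The number of arrays limits the precision. Figures were drawn with matplotlib 3.10.9.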

Additional observations from a re-analysis of the deposited data

How the results depend on the processing

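No ribosomal probe set passed, in either direction, under any of the settings run, which include each array left out and an adjusted p under 0.1. Adding the 110 probe sets that list a ribosomal gene with other genes, chosen after seeing the data, also gave 0, with a median of -0.03. The median difference of all members ran from -0.04 to 0.01 over settings and from -0.05 to 0.00 with an array left out. For the large subunit it ran from -0.04 to -0.00 and from -0.04 to 0.01, and for the small subunit with an array left out from -0.05 to -0.00. The small subunit median was 0.028 both without suffixed probe sets and without the top 1% of probe sets. Over all tested probe sets, 33 higher and 11 lower became 20 and 5 without suffixed probe sets, 19 and 5 with the brightest probe set per gene, 18 and 5 with the mean per gene, and 19 and 3 with the Xist level as a covariate. Lower calls were 28 at an adjusted p under 0.1. With an array left out, higher calls ran from 13 (without WT replicate 2) to 27 and lower calls from 3 (without KO replicate 2 or WT replicate 2) to 14. The labels name no pairing of the samples by replicate number. Same-numbered arrays correlated in their deviations at 0.19, -0.03 and -0.08, and other pairs at -0.16 to 0.18. With so few arrays these values cannot decide whether samples were paired. With the replicate number as a block, 27 probe sets were higher and 6 lower, 0 of them ribosomal.

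Of the 36 named ribosomal genes 22 kept their sign under every setting run, and the lowest adjusted p of a named gene under any setting was 0.114. Signs turned as follows, and the cause was not tested. Under a second quantile normalization Rpl39 measured 0.00082, Rps24 -0.010 and Rps6 0.044. With equal array medians Rpl35 measured -0.0070. With the mean of probe sets per gene Rpl22 measured -0.0073, Rps3 0.086 and Rpsa 0.060. With the Xist level as a covariate Rps20 measured 0.0070 and Rps6 0.010. With an array left out, differences ran from -0.22 to 0.34 for Rpl12, -0.022 to 0.058 for Rpl35, -0.10 to 0.011 for Rpl39l, -0.0022 to 0.051 for Rpl3l and -0.014 to 0.13 for Rps16. They ran from -0.059 to 0.026 for Rps20, -0.029 to 0.078 for Rps24, -0.068 to 0.21 for Rps25, -0.019 to 0.072 for Rps27l, -0.052 to 0.032 for Rps6 and -0.11 to 0.018 for Rpsa.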
